A study of Mus musculus with 27 samples.

Results

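The Wnt pathway genes described here are 10 genes chosen by name: the ligands Wnt2, Wnt5a, Wnt7b and Wnt11, the secreted inhibitors Sfrp1, Sfrp2 and Wif1, the pathway target Axin2, and the transcription factors Lef1 and Tcf7. The array carried probes for 9 of the 10, and 8 had a probe bright enough to be tested, out of 11945 tested genes. RNA came from the left lung lobe of male C57BL/6 X BALBc mouse fetuses on day 18 of gestation and was read on Illumina bead arrays. EG in vitro fetuses grew from blastocysts produced in culture and transferred to pseudo-pregnant females. EG in vivo fetuses grew from blastocysts that had formed in the mother and were transferred in the same way. Control fetuses developed without transfer in naturally ovulating females. A group consisted of 3 pools, each hybridized to 3 technical arrays. The labels give neither the number of fetuses in a pool nor whether pools came from separate litters, so the p-values measure the spread between these pools, which may be technical. EG in vitro differs from control by culture and transfer together, EG in vivo by transfer, and both comparisons use the same control pools. Transfer here includes the pseudo-pregnant recipient, against a naturally ovulating female in control, and their parts cannot be told apart.

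Wnt proteins are lipid-modified secreted signals that bind Frizzled receptors. In the canonical branch they stop the destruction of beta-catenin, which then acts with Tcf and Lef proteins in the nucleus and switches on targets that include Axin2, itself a brake on the pathway. In the mouse lung, Wnt2 from the mesenchyme takes part in specifying the lung. Wnt7b from the epithelium supports growth of epithelium and mesenchyme, and Wnt5a acts mostly outside the canonical branch during distal growth. Sfrp and Wif proteins bind Wnt ligands outside the cell.

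An array detected 19762 to 23449 probes at a median raw signal of 113 to 170. Replicate 3 of every group stood apart from replicates 1 and 2 on the second principal component (26.7% of the variance, after 63.5% on the component that set control apart from both transfer groups). Control replicate 1 went against its label as male: Xist, the RNA of the inactive X chromosome in females, stood at 10.9 there on the log2 scale and was detected on 3 of 3 arrays. Xist was also detected dimly in EG in vitro replicates 1 and 2, at 5.45 and 5.41. Lung identity was present in all groups, with Nkx2-1, the transcription factor of lung epithelium, detected on 9 of 9 arrays in each.

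Wnt7b and Sfrp1 rose in both transfer groups. No member fell past the threshold, which is a Benjamini-Hochberg adjusted p under 0.05 over all tested probes in limma's linear model. Thus 2 of the 8 tested members rose and 0 fell in EG in vitro, and the same numbers held in EG in vivo. At an unadjusted p under 0.05 the numbers were 3 and 0 in EG in vitro lungs and 2 and 0 in EG in vivo. Among all tested genes 44.8% passed in EG in vitro (21.8% higher, 23% lower) and 43.4% in EG in vivo (22.2% higher, 21.2% lower), so the members passed no more often than genes in general. The median log2 fold change of the 8 members was 0.24 in EG in vitro lungs and 0.15 in EG in vivo, beside 0.0322 and 0.0443 over all tested genes. Levels below are normalized signals on the log2 scale, read from the brightest probe of each gene. They are set against each other only within a probe.

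**Figure D1:**
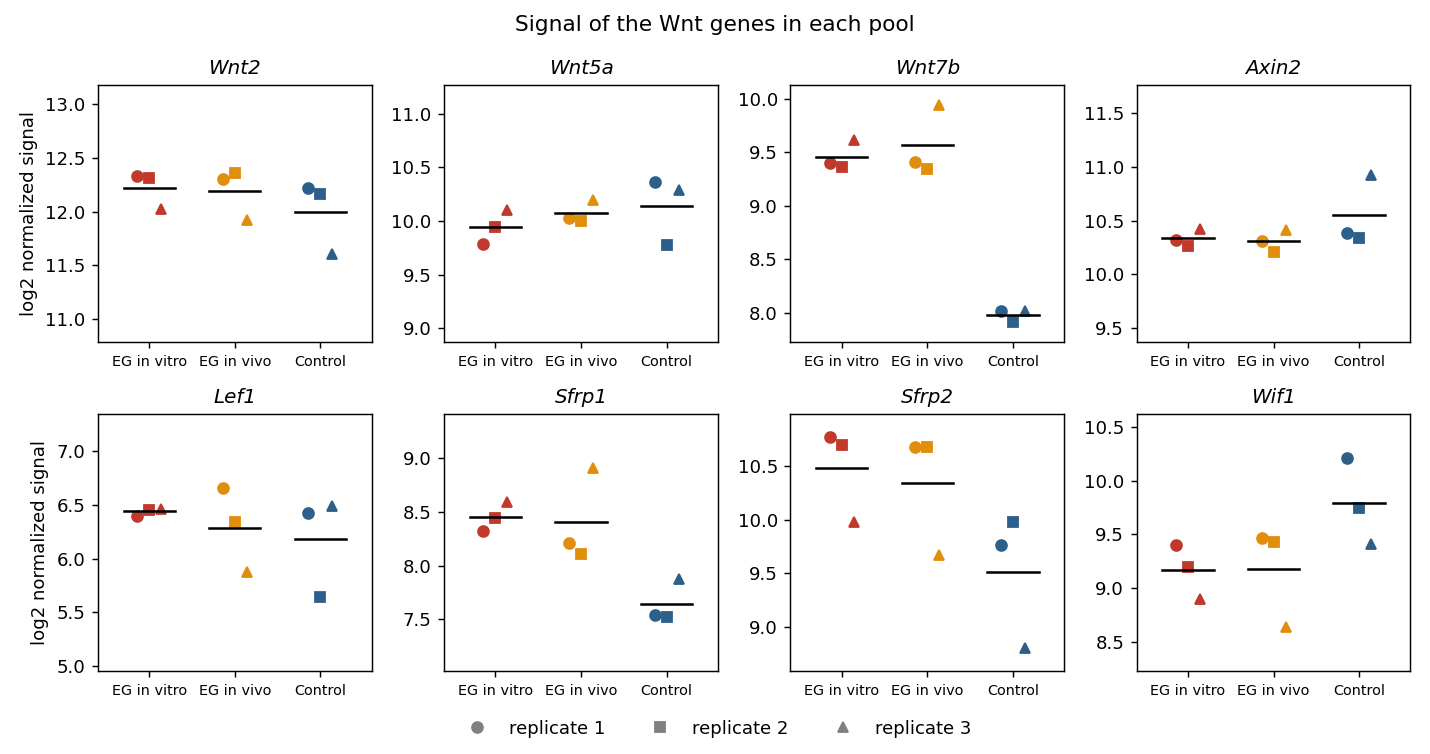
Normalized log2 signal (vertical axis) of the 8 tested Wnt genes in each of the 9 pools, with EG in vitro and EG in vivo left of control; marker shapes give the replicate number and bars the mean of 3 pools. Every vertical axis spans the same range. All transfer pools of Wnt7b and Sfrp1 lie above all control pools, and for Sfrp2 and Wif1 replicate 3 is the lowest pool of each group.

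Wnt7b showed the widest separation. Its signal was 9.39, 9.37 and 9.61 in the EG in vitro pools and 9.41, 9.34 and 9.94 in the EG in vivo pools, against 8.02, 7.91 and 8.02 in the control pools. The groups of transferred fetuses lay entirely above the controls and overlapped each other. Wnt7b rose by 1.47 ± 0.171 in EG in vitro (SE, limma, adjusted p = 0.000231), a 2.78-fold difference. In EG in vivo it rose by 1.58 ± 0.171 (limma, adjusted p = 0.000179), a 2.99-fold difference. A second Wnt7b probe rose by 1.35 in EG in vitro (limma, adjusted p = 0.0022) and by 1.16 in EG in vivo (adjusted p = 0.0049). Without control replicate 1 the Wnt7b difference was 1.49 in EG in vitro (limma, adjusted p = 0.00148) and 1.60 in EG in vivo (adjusted p = 0.00121).

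Wnt2 was 12.02 to 12.34 in EG in vitro lungs and 11.92 to 12.36 in EG in vivo, against 11.60 to 12.22 in control, so the groups overlapped. The difference from control was 0.23 ± 0.203 in EG in vitro (SE, limma, adjusted p = 0.416) and 0.20 ± 0.203 in EG in vivo (adjusted p = 0.489). Its intervals reached from -0.23 to 0.69 in EG in vitro lungs and from -0.27 to 0.66 in EG in vivo.

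Wnt5a was 9.78 to 10.11 in EG in vitro lungs and 10.002 to 10.197 in EG in vivo, against 9.78 to 10.36 in control. The difference was -0.20 ± 0.175 in EG in vitro (SE, limma, adjusted p = 0.411) and -0.07 ± 0.175 in EG in vivo (adjusted p = 0.81). Its other tested probes gave -0.17 and 0.33 in EG in vitro, and -0.59 and 0.20 in EG in vivo, and none passed. With the replicate number as a block, the Wnt5a probe at -0.59 passed in EG in vivo (adjusted p = 0.0323), while the brightest probe did not. Wnt11, a ligand known mainly for cell movement, was close to the detection limit. It was detected on 4 of 9 EG in vitro arrays and 1 of 9 EG in vivo arrays, against 0 of 9 control arrays, and no fold can be given.

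Of the secreted inhibitors, Sfrp1 rose. Its signal was 8.32, 8.44 and 8.60 in the EG in vitro pools and 8.21, 8.10 and 8.91 in the EG in vivo pools, against 7.54, 7.52 and 7.87 in the control pools. The transfer groups lay above the controls without overlap. Sfrp1 rose by 0.81 ± 0.22 in EG in vitro (SE, limma, adjusted p = 0.0184), a 1.75-fold difference, and by 0.76 ± 0.22 in EG in vivo (adjusted p = 0.0243), a 1.70-fold difference. Its second probe rose by 1.17 in EG in vitro (limma, adjusted p = 0.00642) and 1.21 in EG in vivo (adjusted p = 0.00578) and passed in all 23 alternative fits of both comparisons. The call on the brighter Sfrp1 probe was lost in EG in vitro without control replicate 1 (limma, adjusted p = 0.0609), control replicate 2 (0.0575), EG in vitro replicate 2 (0.0524) or EG in vitro replicate 3 (0.0592). In EG in vivo it was lost without control replicate 1 (limma, adjusted p = 0.0762) or control replicate 2 (0.0718).

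Sfrp2 and Wif1, a pair of Wnt-binding inhibitors, differed from control in opposite directions within every replicate number. Sfrp2 was 10.78, 10.69 and 9.98 in the EG in vitro pools and 10.68, 10.68 and 9.67 in the EG in vivo pools, against 9.77, 9.98 and 8.80 in the control pools. Replicate 3 was the lowest pool of each group, and the transfer and control ranges overlapped. Without regard to replicate numbers the Sfrp2 difference was 0.97 ± 0.395 in EG in vitro (SE, limma, adjusted p = 0.0838) and 0.83 ± 0.395 in EG in vivo (adjusted p = 0.134). Leaving out control replicate 3 took the Sfrp2 difference to 0.609 in EG in vitro (limma, adjusted p = 0.225) and 0.469 in EG in vivo (adjusted p = 0.351). Without EG in vivo replicate 3 it passed in EG in vivo, at 1.16 (limma, adjusted p = 0.0451). Between same-numbered pools it was 1.01, 0.714 and 1.18 in EG in vitro minus control, and 0.911, 0.70 and 0.871 in EG in vivo minus control. With the replicate number as a block, Sfrp2 passed in EG in vitro (limma, adjusted p = 0.000298) and in EG in vivo (adjusted p = 0.00071).

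Wif1 was 9.40, 9.19 and 8.90 in the EG in vitro pools and 9.47, 9.42 and 8.64 in the EG in vivo pools, against 10.21, 9.75 and 9.41 in the control pools. The highest EG in vitro pool lay just under the lowest control pool, and the EG in vivo and control ranges overlapped. The Wif1 difference was -0.62 ± 0.281 in EG in vitro (SE, limma, adjusted p = 0.112) and -0.61 ± 0.281 in EG in vivo (adjusted p = 0.121). Between same-numbered pools it was -0.809, -0.553 and -0.511 in EG in vitro minus control, and -0.74, -0.322 and -0.77 in EG in vivo minus control. With the replicate number as a block, Wif1 passed in EG in vitro (limma, adjusted p = 0.00473) and in EG in vivo (adjusted p = 0.0055). Without control replicate 1, the highest control pool, the unblocked Wif1 difference was -0.41 in EG in vitro (limma, adjusted p = 0.321) and -0.40 in EG in vivo (adjusted p = 0.344).

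**Figure D2:**
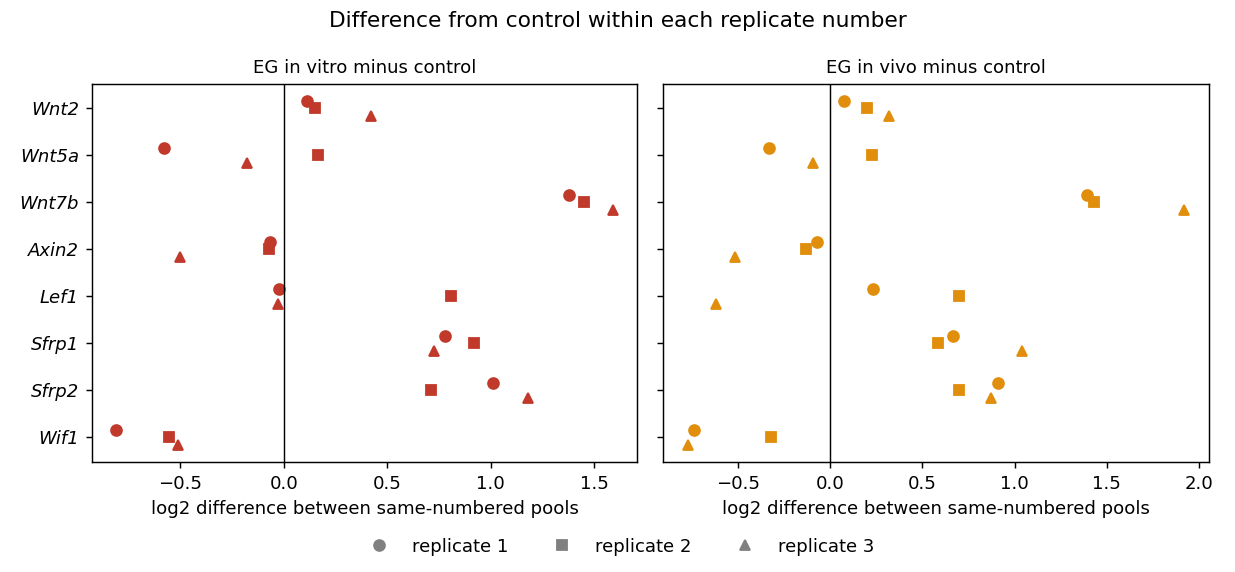
Log2 difference from control between pools of the same replicate number (horizontal axis) for each Wnt gene, with EG in vitro minus control on the left and EG in vivo minus control on the right; marker shapes give the replicate number. Wnt7b, Sfrp1, Sfrp2 and Wnt2 lie above 0 and Wif1 and Axin2 below 0 in all 3 numbers of both comparisons. Wnt5a and Lef1 fall on both sides. Wnt2 and Axin2 did not pass with the block.

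With the block, 4 of the 8 members passed in each comparison: Wnt7b, Sfrp1 and Sfrp2 rose and Wif1 fell. The block also raised the share of all genes that passed to 60% in EG in vitro lungs and 58.4% in EG in vivo, so this share of members too was no higher than that of all genes. Pools that did not overlap were found for 3 members in EG in vitro (Wnt7b, Sfrp1 and Wif1) and 2 in EG in vivo (Wnt7b and Sfrp1), where 57.4% and 53.3% of all genes had none.

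Axin2, the target most often read as a gauge of canonical signalling, did not pass. It was 10.32, 10.26 and 10.43 in the EG in vitro pools and 10.31, 10.20 and 10.41 in the EG in vivo pools, against 10.39, 10.33 and 10.93 in the control pools. The control mean rests in part on replicate 3, and the other 2 control pools lay within the range of the transfer pools. The Axin2 difference was -0.21 ± 0.169 in EG in vitro (SE, limma, adjusted p = 0.357) and -0.24 ± 0.169 in EG in vivo (adjusted p = 0.305). It was below 0 in every replicate number of both comparisons, at -0.503 in EG in vitro minus control and -0.515 in EG in vivo minus control for replicate 3, and between -0.131 and -0.0689 for the others.

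Lef1, a nuclear partner of beta-catenin, was dim. It was 6.40, 6.45 and 6.46 in the EG in vitro pools and 6.65, 6.34 and 5.87 in the EG in vivo pools, against 6.42, 5.64 and 6.49 in the control pools. The difference was 0.25 ± 0.262 in EG in vitro (SE, limma, adjusted p = 0.49) and 0.10 ± 0.262 in EG in vivo (adjusted p = 0.801), and its direction turned without control replicate 2 in both comparisons and without EG in vivo replicate 1 in EG in vivo. The other 3 Lef1 probes were detected on at most 3 of 9 arrays of any group. Tcf7, a T cell and progenitor factor of the same family, had no probe under its symbol or gene identifier and was not analysed here. Lef1 and Tcf7 are strongly expressed in T cells, whose part in the Lef1 signal was not tested. Of 11 T cell and thymus markers on the array only Cd8b1 was bright enough to test, at 3448 to 4500 (linear scale) in EG in vitro lungs and 3679 to 4432 in EG in vivo, against 2176 to 2926 in control. The other 10 were detected on at most 4 of 9 arrays of any group, and Cd8a, Rag2, Dntt and Themis on 0. Unlike Cd8b1, Cd3d, Cd3e and Cd3g were detected in control alone, on 4, 3 and 2 of 9 arrays. In EG in vitro, EG in vivo and control, Cd4 was detected on 1, 2 and 2 arrays and Ptcra on 3, 1 and 3. Rag1 was detected on 1, 0 and 3. The T cell markers thus gave no common direction.

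**Figure D3:**
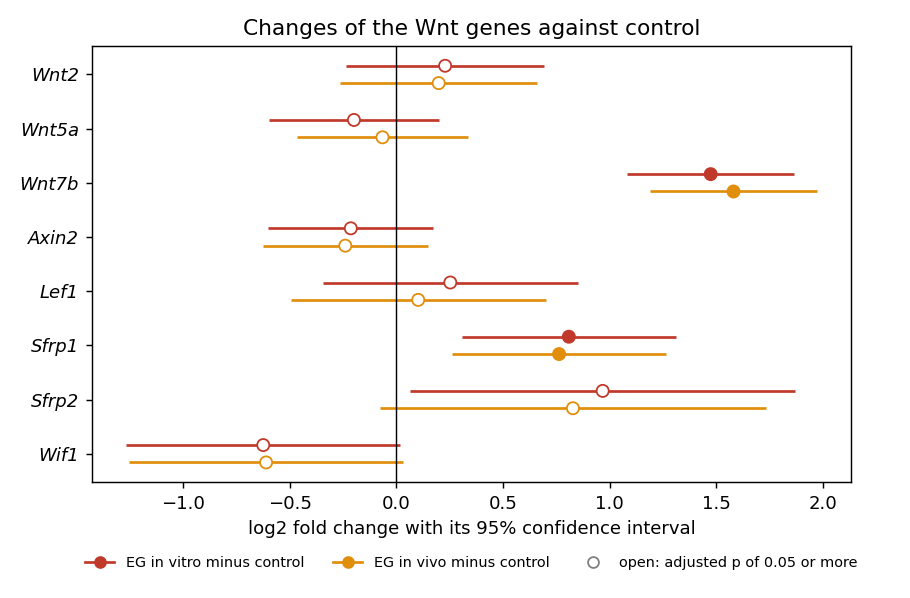
Log2 fold change against control (horizontal axis) of the 8 tested Wnt genes with its 95% confidence interval from the linear model; EG in vitro is drawn above EG in vivo for each gene, and filled points passed an adjusted p of 0.05. Only the points of Wnt7b and Sfrp1 are filled, and the 2 comparisons share their controls.

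The transfer groups were close to each other for all 8 tested members. The EG in vitro minus EG in vivo difference lay between -0.13 for Wnt5a and 0.15 for Lef1, and no member had an adjusted p below 1 in limma or an unadjusted p under 0.05. The interval of the Wnt7b difference reached from -0.50 to 0.28, and that of Sfrp1 from -0.46 to 0.55. The Sfrp2 interval was the widest, from -0.76 to 1.04. In the same comparison 0% of all genes passed, 21 genes were higher and 132 lower at an unadjusted p under 0.05, and 5.42% had pools that did not overlap. None of the 8 members was among those without overlap.

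Several sets of cell type markers also differed from control, and in whole lung fewer cells of a type and less RNA per cell cannot be told apart. The counts below stand beside the 44.8% and 43.4% of all tested genes that passed in EG in vitro and EG in vivo. The epithelial count was near that share and the mesenchymal count below it. Epithelial markers, the compartment in which Wnt7b is made, summed to 21530 to 22880 on the linear scale in EG in vitro lungs and 21600 to 24770 in EG in vivo, against 25500 to 29590 in control. Of these 7 markers 0 rose and 3 fell in each comparison, and at an unadjusted p under 0.05 0 rose and 3 fell as well. Among 4 markers of the growing epithelial tips Sox9, which also acts in cartilage, alone passed, with a difference of 1.67 in each comparison, while Etv5, Id2 and Bmp4 did not. The tip sum was 11530 to 12520 in EG in vitro lungs and 12030 to 12630 in EG in vivo, against 7237 to 7842 in control. All 5 alveolar type I markers and all 6 alveolar type II markers fell, while 3 of 4 proliferation markers rose, in both comparisons. The proliferation sum was 15560 to 17430 in EG in vitro lungs and 13740 to 16230 in EG in vivo, against 2456 to 3963 in control. Mesenchymal markers, the compartment of Wnt2 and Wnt5a, summed to 28480 to 39300 in EG in vitro lungs and 24440 to 36660 in EG in vivo, against 30830 to 39600 in control, and 3 of 10 fell. Smooth muscle markers summed to 26210 to 29410 in EG in vitro lungs and 23450 to 29470 in EG in vivo, against 12610 to 15490 in control, and 3 of 4 rose. Endothelial markers summed to 11500 to 12550 in EG in vitro lungs and 11980 to 12610 in EG in vivo lungs, against 21990 to 29100 in control lungs, and 5 of 6 fell in EG in vitro lungs and all 6 in EG in vivo. Mesothelial markers summed to 764.2 to 932.1 in EG in vitro lungs and 719.1 to 1139 in EG in vivo lungs, against 4273 to 5765 in control lungs, and 2 of 3 fell in EG in vitro lungs and all 3 in EG in vivo. Their log2 changes ranged from -5.25 to -0.67 in EG in vitro (median -0.949) and from -4.58 to -0.81 in EG in vivo (median -1.01). The fall of the sum thus rests mainly on the marker with the largest change. Heart muscle markers summed to 2232 to 3420 in EG in vitro lungs and 2344 to 3833 in EG in vivo lungs, against 4867 to 5947 in control lungs, and 3 of 4 fell in EG in vitro lungs and 2 of 4 in EG in vivo. Of 5 listed cartilage markers 2 could be tested, Col2a1 and Col9a1, and both rose. Their sum was 577.9 to 787.2 in EG in vitro lungs and 475.5 to 618.2 in EG in vivo, against 21.17 to 50.25 in control. Col2a1, type II collagen, was at least 8.17-fold higher in EG in vitro and 6.06-fold higher in EG in vivo. Its brightest probe was detected on 0 of 9 control arrays and was kept through the transfer groups. Acan went the other way in detection, on 2 of 9 EG in vitro arrays and 1 of 9 EG in vivo arrays, against 4 of 9 control arrays. Comp was detected on 2 EG in vitro arrays and 0 of the other groups, and Matn1 on 0 arrays of any group. The part of these markers in the Wnt values was not tested.

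Over the 9 pools Wnt7b and Sfrp1 varied together (Pearson r = 0.93), and so did Wnt2 and Sfrp2 (r = 0.932), while Sfrp1 and Wif1 ran against each other (r = -0.927), as did Wnt2 and Axin2 (r = -0.922). These are descriptions over 9 pools that share groups and replicate numbers. After the group means were taken out, the values were 0.923 for Wnt7b and Sfrp1, 0.969 for Wnt2 and Sfrp2, -0.898 for Sfrp1 and Wif1, and -0.916 for Wnt2 and Axin2, so they hold the set-apart replicate 3 as well. Sfrp1 and Sfrp2, both above control in every number, had r = -0.9 after the group means were taken out. The genes most like Wnt7b were Exog (r = 0.999) and Lmnb2 (0.998), those most like Sfrp1 were Ctu2 (0.989) and Pafah1b3 (0.987), and those most like Wnt2 were Slc38a2 and Ctnnd2 (0.996 each). Sfrp2 was most like Gm5797 (0.998) and Gemin2 (0.993), Wif1 most like Resf1 (0.968) and Atp6v1a (0.964), and Axin2 most like Cma1 (0.984) and Pdk2 (0.978). Wnt5a was most like Tmem120b (0.929) and Ppic (0.894), and Lef1 most like Ttf1 (0.934) and Cep68 (0.927).

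Promoter windows of RefSeq (GRCm38.p6, 250 bases before to 50 after the start of transcription) were held for 7 of the 10 members, 12 windows in all. They were searched on both strands for the core of the Tcf and Lef binding motif, spelled CTTTG followed by AA, AT, TA or TT. A motif was held by 2 of the 12 windows, 1 of Lef1 and 1 of Wnt11, and by 16.9% of all 32851 windows. GC content of the 12 windows ranged from 43.7% to 76.3%, beside a median of 52.7% over all windows. The windows of Sfrp2 and Wif1 are shown for the opposite direction of these inhibitors within every replicate number, that of Axin2 as the pathway target, and that of Lef1 as the window with a motif among the tested members. The Lef1 window is the last of its 4, and the other 3 hold no motif and have a GC content of 67.3%, 67.3% and 51.7%. All are on the plus strand, at chr3:83766071-83766370 for Sfrp2, chr10:121033754-121034053 for Wif1, chr11:108920099-108920398 for Axin2 and chr3:131156044-131156343 for Lef1, and capitals mark the motif, here on the minus strand.
Sfrp2: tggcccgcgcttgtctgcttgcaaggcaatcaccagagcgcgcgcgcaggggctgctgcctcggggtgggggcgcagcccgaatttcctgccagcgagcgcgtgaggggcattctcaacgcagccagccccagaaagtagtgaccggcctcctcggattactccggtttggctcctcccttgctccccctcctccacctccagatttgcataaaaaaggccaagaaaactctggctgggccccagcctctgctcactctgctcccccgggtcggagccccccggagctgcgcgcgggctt
Wif1: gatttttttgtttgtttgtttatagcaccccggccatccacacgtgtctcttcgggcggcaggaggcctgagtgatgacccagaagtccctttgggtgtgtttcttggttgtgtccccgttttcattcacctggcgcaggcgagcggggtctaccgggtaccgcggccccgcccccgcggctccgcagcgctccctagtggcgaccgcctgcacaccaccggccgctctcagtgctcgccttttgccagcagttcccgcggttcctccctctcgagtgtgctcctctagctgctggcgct
Axin2: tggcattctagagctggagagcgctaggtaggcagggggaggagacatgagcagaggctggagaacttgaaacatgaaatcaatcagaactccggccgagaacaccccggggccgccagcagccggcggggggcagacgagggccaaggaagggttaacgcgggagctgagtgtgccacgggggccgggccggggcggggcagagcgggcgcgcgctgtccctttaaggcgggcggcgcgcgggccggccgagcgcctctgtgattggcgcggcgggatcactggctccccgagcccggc
Lef1: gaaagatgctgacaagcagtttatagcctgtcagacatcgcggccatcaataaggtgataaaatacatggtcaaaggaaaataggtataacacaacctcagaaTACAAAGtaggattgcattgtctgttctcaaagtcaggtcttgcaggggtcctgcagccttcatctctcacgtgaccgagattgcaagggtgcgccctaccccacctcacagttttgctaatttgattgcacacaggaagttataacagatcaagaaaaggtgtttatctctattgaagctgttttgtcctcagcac
The Sfrp2, Wif1 and Axin2 windows held none of the 4 words, which says only that these letters are not in these windows. Their GC content was 66% for Sfrp2, 63% for Wif1 and 70% for Axin2. The Lef1 window shown, at 43.7%, had the lowest GC content of the 12.

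Beyond the 10 members, 109 other genes of the pathway were listed by role, of which 106 were on the array and 76 bright enough to test. In EG in vitro 14 rose and 12 fell, and in EG in vivo 16 rose and 11 fell. These are smaller shares of the 76 than the 44.8% and 43.4% of all tested genes that passed. The median log2 fold change was 0.0848 in EG in vitro lungs and 0.0681 in EG in vivo, beside 0.0322 and 0.0443 over all tested genes. With the replicate number as a block, 22 rose and 20 fell in EG in vitro lungs and 23 rose and 17 fell in EG in vivo, again below the 60% and 58.4% of all genes. Without control replicate 1, 11 rose and 11 fell in EG in vitro lungs and 13 rose and 9 fell in EG in vivo.

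**Figure D4:**
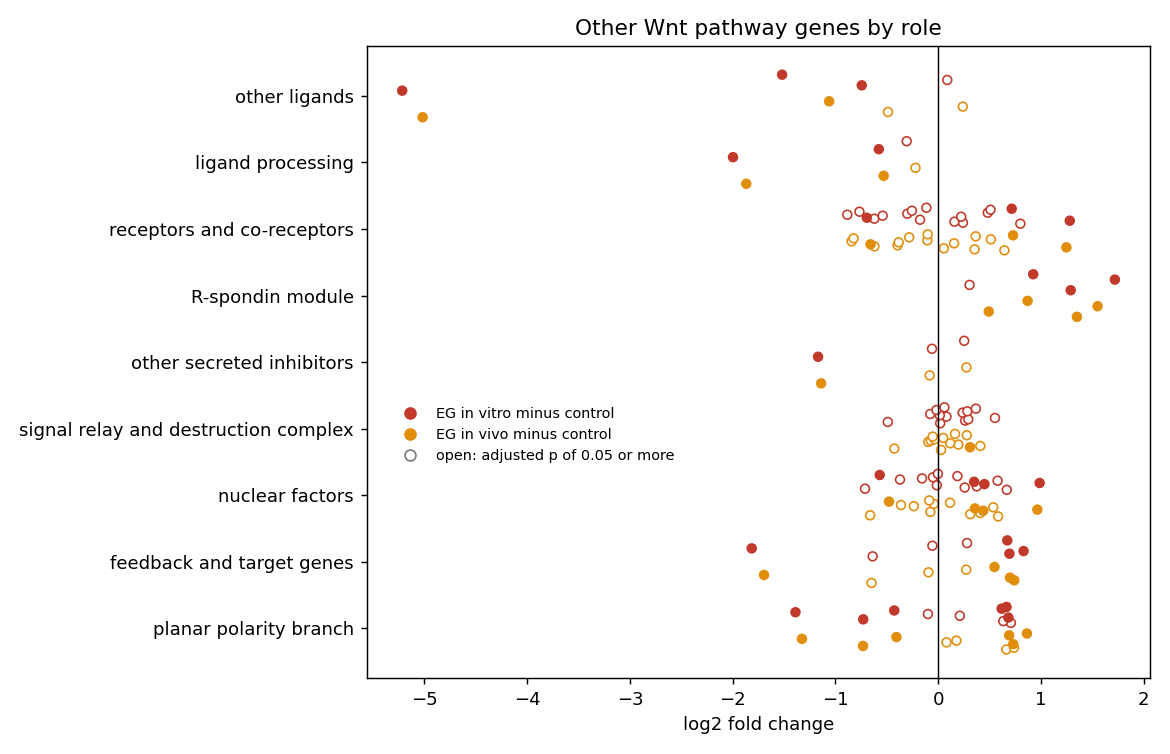
Log2 fold change against control (horizontal axis) of 76 further pathway genes grouped by role, 1 point per gene and comparison, with EG in vitro above EG in vivo within each role; filled points passed an adjusted p of 0.05 in limma. Wnt3a lies far to the left at -5.22 and -5.02, and all R-spondin module points lie right of 0.

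Ligands outside the member list were lower where they passed. Wnt3a, a strong activator of the canonical branch, was 4.82, 4.62 and 4.58 in the EG in vitro pools and 4.68, 4.71 and 5.23 in the EG in vivo pools, against 9.90, 9.61 and 10.18 in the control pools. Its 1 probe was detected on 0 of 9 EG in vitro arrays and 1 of 9 EG in vivo arrays, against 9 of 9 control arrays. The probe was thus kept for testing through the control arrays alone, where it is high. Wnt3a was at least 25.7-fold lower in EG in vitro and at least 23.1-fold lower in EG in vivo. The modelled differences were -5.22 in EG in vitro (limma, adjusted p = 2.05e-06) and -5.02 in EG in vivo (adjusted p = 2.69e-06). These p-values belong to differences from undetected signals, not to the bounds. Wnt7a fell by 1.52 in EG in vitro (limma, adjusted p = 0.000191) and by 1.06 in EG in vivo (adjusted p = 0.00146). Wnt7a was thus lower while the closely related Wnt7b was higher. Wnt4 changed by -0.74 in EG in vitro (limma, adjusted p = 0.0266, lost without control replicate 1 or 3 or EG in vitro replicate 1 or 2) and by -0.49 in EG in vivo (adjusted p = 0.115, and 0.0171 with the replicate block). In all 3 of the 4 tested ligands fell in EG in vitro lungs and 2 in EG in vivo, and 11 of the 15 listed were not bright enough to test.

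Enzymes that modify Wnt proteins were lower too. Notum, which strips the lipid from Wnt proteins and is itself induced by canonical signalling, was 6.49, 6.19 and 6.46 in the EG in vitro pools and 6.40, 6.44 and 6.69 in the EG in vivo pools, against 8.38, 8.67 and 8.08 in the control pools. It fell by 2.00 ± 0.175 in EG in vitro (SE, limma, adjusted p = 5.3e-05) and by 1.87 ± 0.175 in EG in vivo (adjusted p = 8.53e-05). Porcn, which attaches the lipid, fell by 0.58 in EG in vitro lungs and 0.53 in EG in vivo (limma, adjusted p = 0.00372 and 0.006). These were 2 of 3 tested genes of this role, beside 23% and 21.2% of all tested genes that fell.

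Among targets and feedback inhibitors the directions were mixed, 3 of 7 higher and 1 lower in each comparison. Nkd1, an inhibitor induced by canonical signalling, was 8.55, 8.53 and 9.08 in the EG in vitro pools and 8.69, 8.56 and 9.28 in the EG in vivo pools, against 10.34, 10.26 and 11.01 in the control pools. Nkd1 fell by 1.81 ± 0.272 in EG in vitro (SE, limma, adjusted p = 0.000952) and by 1.70 ± 0.272 in EG in vivo (adjusted p = 0.0015), with no overlap. Ccnd1, cyclin D1, rose by 0.69 in EG in vitro lungs and 0.74 in EG in vivo (limma, adjusted p = 0.0041 and 0.00313), and Tnfrsf19, a receptor of the tumour necrosis factor family, rose by 0.67 in EG in vitro lungs and 0.55 in EG in vivo (adjusted p = 0.00108 and 0.00339). Myc, the growth regulator, was detected on 4 of 9 control arrays and was kept through the transfer groups. It was at least 1.65-fold higher in EG in vitro and 1.51-fold higher in EG in vivo. The modelled Myc differences were 0.83 in EG in vitro (limma, adjusted p = 0.00869) and 0.70 in EG in vivo (adjusted p = 0.0197). The EG in vivo call was lost without control replicate 1 or 2 or EG in vivo replicate 3. These p-values do not test the bounds. Ccnd1 and Myc are also cell cycle genes, and 3 of the 4 tested proliferation markers rose in both comparisons as well. A link between them was not tested.

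R-spondins amplify Wnt signals by removing the ligases that clear Frizzled receptors. Of 9 listed R-spondins and partners 4 could be tested, of which 3 rose in EG in vitro lungs and 4 in EG in vivo. Rspo2 was 7.39, 7.06 and 7.07 in the EG in vitro pools and 7.35, 7.10 and 6.55 in the EG in vivo pools, against 5.58, 5.26 and 5.51 in the control pools. It rose by 1.72 ± 0.212 in EG in vitro (SE, limma, adjusted p = 0.000324) and by 1.55 ± 0.212 in EG in vivo (adjusted p = 0.000632). The receptor Lgr6 rose by 1.29 in EG in vitro (limma, adjusted p = 0.00071) and by 1.35 in EG in vivo (adjusted p = 0.000599). Rspo3 was detected on 4 of 9 control arrays and was kept through the transfer groups. It was at least 1.77-fold higher in EG in vitro lungs and 1.70-fold higher in EG in vivo. The p-values belong to its modelled differences, 0.93 and 0.87 (limma, adjusted p = 0.0027 and 0.00392), and not to these bounds. Rnf43, a ligase of this kind, differed by 0.31 in EG in vitro (limma, adjusted p = 0.0924) and rose by 0.49 in EG in vivo (adjusted p = 0.0161).

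Of 17 tested receptors 2 rose and 1 fell in each comparison, a smaller share than the 44.8% and 43.4% of all tested genes that passed. With the replicate block 3 rose and 4 fell in EG in vitro, and 2 rose and 4 fell in EG in vivo. This was again below the 60% and 58.4% of all genes. Fzd3 rose by 1.28 in EG in vitro (limma, adjusted p = 6.98e-05) and 1.25 in EG in vivo (adjusted p = 9.15e-05). Ror2, a receptor for Wnt5a, rose by 0.72 in EG in vitro lungs and 0.73 in EG in vivo (limma, adjusted p = 0.00374 and 0.00361). Fzd6 fell by 0.69 in EG in vitro lungs and 0.66 in EG in vivo (limma, adjusted p = 0.00264 and 0.00367).

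Genes of the relay inside the cell and nuclear factors passed less often than the 44.8% and 43.4% of all tested genes. Of 13 tested genes between receptor and nucleus 0 passed in EG in vitro (limma, 2 at an unadjusted p under 0.05), and Axin1, the scaffold of the beta-catenin destruction complex, rose by 0.31 in EG in vivo (adjusted p = 0.0415). That Axin1 call was lost whichever pool was left out. With the replicate block 2 relay genes rose and 1 fell in EG in vitro, and 3 rose and 0 fell in EG in vivo. Of 15 nuclear factors 3 rose and 1 fell in each comparison, against 6 and 3 in EG in vitro and 6 and 2 in EG in vivo with the block. Of all tested genes 60% and 58.4% passed with the block. Pygo1, a cofactor of beta-catenin, rose by 0.99 in EG in vitro lungs and 0.97 in EG in vivo (limma, adjusted p = 0.000687 and 0.000846). Ctnnbip1, which blocks beta-catenin from Tcf proteins, rose by 0.45 in EG in vitro lungs and 0.44 in EG in vivo (adjusted p = 0.0109 and 0.013). Tle4, a corepressor, fell by 0.57 in EG in vitro (adjusted p = 0.00637) and by 0.48 in EG in vivo (adjusted p = 0.0149, lost without control replicate 1 or 2 or EG in vivo replicate 1). Pygo2 rose by 0.35 in EG in vitro lungs and 0.36 in EG in vivo (adjusted p = 0.0243 and 0.0228), a call lost in EG in vitro without control replicate 1 or 2 or EG in vitro replicate 1 or 2, and in EG in vivo without control replicate 2 or EG in vivo replicate 1 or 2.

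Of the other secreted inhibitors Dkk3, a divergent Dickkopf protein, was the 1 of 3 tested that passed. It fell by 1.17 ± 0.115 in EG in vitro (SE, limma, adjusted p = 9.52e-05) and by 1.14 ± 0.115 in EG in vivo (adjusted p = 0.000126). The planar polarity branch, which orients cells without beta-catenin, had 3 genes higher and 3 lower of 10 in each comparison. Prickle1 fell by 1.39 in EG in vitro lungs and 1.33 in EG in vivo (limma, adjusted p = 2.37e-05 and 3.59e-05), and Daam1 fell by 0.73 in both (adjusted p = 0.00878 and 0.00909). Its relative Daam2 rose by 0.68 in EG in vitro lungs and 0.73 in EG in vivo (limma, adjusted p = 0.00698 and 0.00533). Vangl2 rose by 0.67 in EG in vitro (limma, adjusted p = 0.031, lost without control replicate 1 or 2 or EG in vitro replicate 3) and by 0.86 in EG in vivo (adjusted p = 0.0105).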

How the data were processed

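The intensity values are the mean bead signals per probe and array in the non-normalized table the authors deposited, with a detection p-value per array, per the file headers. The lowest intensity was 84, so no background had been subtracted. The authors' processed matrix, deposited as intensity on a linear scale, had column medians of 138.4 to 138.6 and was used as an alternative. The sources used here name neither the scanner software nor the normalization tool. RNA was extracted with Trizol and biotinylated cRNA made with an Ambion kit, per the labels' protocols.

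From the deposited signals, neqc in limma 3.58.1 (R 4.3.3) made background-corrected, quantile-normalized log2 values (offset 16). Probes had to reach a detection p under 0.05 on 6 or more of the 9 arrays of any group, which 22958 of 45281 did. The 3 arrays of a pool were averaged. One linear model over 9 pools (lmFit and eBayes, with 6 degrees of freedom among pools and 2.41 from the prior) yielded 3 contrasts, adjusted by Benjamini-Hochberg over all kept probes. Genes were named from the platform annotation, 34885 probes having 1 symbol, 18 several and 10378 none, and 34807 matched RefSeq by identifier. A gene is read from its kept probe with the highest mean. A gene undetected, or detected on at most 5 of 9 arrays, in its dimmer group is given as "at least", against each array's lowest detected signal or its own value, whichever is higher.

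The members, the gene lists and the tests were chosen with earlier results of these data known. All members are named, and from each other role up to 4 genes past the threshold with the largest mean change. The 2 genes with the highest Pearson correlation with each tested member are named as most alike. Same-numbered pools of different groups deviated together (correlations 0.503 to 0.827), and replicate numbers were taken to pair the pools. The set-apart replicate 3 can give such correlations by itself, and no values for differently numbered pools are given. Pairing of numbers 1 and 2 is therefore an assumption. With replicate 3 set against replicates 1 and 2 as a block, Sfrp2 and Wif1 also passed in both comparisons with control. A fit with the number as a block is printed where it changes the call of a named pathway gene. Technical arrays of a pool correlated at 0.989 to 0.996. The number of arrays limits precision and, since the arrays of a pool were averaged, so do the 3 pools per group. Alternatives were other blocks, filters, offsets, scalings, weights, tests and leaving out each pool.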

Additional observations from a re-analysis of the deposited data

How the results depend on the processing

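Wnt7b kept its call and direction against control in all 23 alternative fits, with log2 differences of 1.15 to 1.52 in EG in vitro lungs and 1.24 to 1.69 in EG in vivo. In each comparison with control the number of members past the threshold was 2. It was 4 with the replicate block, with replicate 3 set against replicates 1 and 2 as a block, with replicates 1 and 2 only, and with 27 arrays and the pool as a random block, and it was 5 with array weights, which did not converge. It was 1 with treat, which tests for a change beyond 1.2-fold, and 1 in EG in vivo with only the 2 groups compared. Leaving out 1 pool at a time gave 1 to 2 members in EG in vitro lungs and 1 to 3 in EG in vivo. The replicate block changed no other call against control among the members' brightest probes than Sfrp2 and Wif1. Over all kept probes 9292 passed in EG in vitro lungs and 9011 in EG in vivo, 17937 and 15719 with array weights, and 6146 and 5756 with treat at 1.2-fold. Between EG in vitro and EG in vivo 0 passed, against 1 with 27 arrays and 2 with array weights. Leaving out 1 pool gave 7286 to 10132 probes for EG in vitro against control, 7234 to 8927 for EG in vivo against control, and 0 to 0 between the transfer groups. The cause of these differences was not tested.

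Within a comparison, directions turned only for members that had not passed in that comparison. On leaving out 1 pool, Lef1 ranged from -0.0184 to 0.405 in EG in vitro lungs and from -0.169 to 0.311 in EG in vivo, and Wnt5a from -0.248 to 0.0447 in EG in vivo. Sfrp2, which did not turn, ranged from 0.609 to 1.22 in EG in vitro lungs and from 0.469 to 1.16 in EG in vivo. In EG in vitro minus EG in vivo, replicates 1 and 2 only gave Wnt2 -0.00652, Wnt7b 0.00562 and Lef1 -0.0715, median scaling gave Wnt2 -0.0382 and Axin2 -0.0279, and array weights gave Wnt2 -0.000658, Axin2 -0.00444 and Lef1 -0.0705. There, leaving out 1 pool gave -0.107 to 0.13 for Wnt2, -0.217 to 0.0825 for Wnt7b, -0.0273 to 0.0777 for Axin2, -0.0585 to 0.333 for Lef1, -0.106 to 0.297 for Sfrp1, -0.197 to 0.393 for Sfrp2 and -0.283 to 0.133 for Wif1. Of the 26 other pathway genes named, 15 kept call and direction in every alternative fit of both comparisons. Median scaling ended the calls of Porcn and Daam1 in both comparisons, of Tle4 and Pygo2 in both, and of Rnf43 and Axin1 in EG in vivo. The fit on 27 arrays ended those of Rspo3 in both, of Wnt4 in EG in vitro lungs and of Rnf43 and Myc in EG in vivo. With no background correction, and in the authors' matrix, Wnt4 in EG in vitro lungs and Rnf43 and Myc in EG in vivo did not pass. Log2 differences of dim genes such as Lef1, Rspo3 and Myc depend on the offset, and signals close to background limit what can be said of Wnt11.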
